A study of Homo sapiens with 4 samples.

Results

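Cells labelled HepG2, the name of a human liver cancer line, were transfected with either of 2 small interfering RNA duplexes against PVT1, named siPVT1-1 and siPVT1-2, or with a negative control RNA duplex, NC, which matches no human sequence by its label. These 3 arrays, 1 per duplex, are described here out of the 4 of the study; the other array, from cells given a miR-214 mimic, entered the normalization and serves as a second reference. All cells were grown in RPMI-1640 medium with fetal bovine serum and transfected with the reagent INTERFERin. Total RNA was measured on 1-colour OneArray Plus chips. Doses, the time from transfection to harvest and the duplex sequences are not given in the sources used here. A gene was counted when both siRNA arrays differed from the NC array in the same direction by at least 2-fold. Of 10667 genes above the level filter, 169 met this rule, which is 1.58% of those compared. There were 74 higher genes (0.694%) and 95 lower genes (0.891%). With 1 array per duplex there is no replicate error and no test, so "higher" and "lower" refer to this rule of size alone.

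PVT1 is a long noncoding RNA whose gene lies beside MYC, and both are often amplified together in cancers. Short RNA duplexes guide Argonaute proteins to matching transcripts, and partial matches in other transcripts can also be repressed. Many of the lower genes belong to the integrated stress response, in which kinases that sense amino acid shortage, misfolded protein, haem shortage or double-stranded RNA phosphorylate the initiation factor eIF2. Translation of the transcription factor ATF4 then rises, and ATF4 with C/EBP partners switches on amino acid synthesis, uptake and tRNA charging.

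Values are log2 normalized intensities, and a difference is an siRNA array minus the NC array. Both differences subtract the same NC array, so any deviation of that array enters both. The median absolute difference over genes was 0.23 between NC and siPVT1-1, 0.25 between NC and siPVT1-2 and 0.18 between the siRNA arrays, and 316, 270 and 53 genes were at least 2-fold apart in these pairs. The siRNA arrays thus lay closer to each other than to NC. The mimic array was 2-fold apart from siPVT1-1 for 322 genes, from siPVT1-2 for 178 and from NC for 511. Its median absolute difference from siPVT1-2 was 0.17, smaller than that between the siRNA arrays. No probe was named PVT1, so its depletion could not be checked. Of 27 hepatocyte markers, 24 had a named probe and 6 passed the level filter. ALB was close to background, at 6.73, 6.94 and 6.87 on the NC, siPVT1-1 and siPVT1-2 arrays, and APOA2 was at the floor. LUM, DCN and COL5A1, matrix genes from a list of 12 fibroblast markers, were bright on the same arrays, with LUM at 16.32, 16.52 and 16.73. Most of that list was dim, with a median NC level of 9.08 under the filter level of 9.72, so it does not mark the cells as fibroblasts. The dim hepatocyte markers go against the liver origin that the HepG2 label gives, and the identity of the cells was not tested. Of the markers of other cell types with a named probe, 4 of 12 fibroblast, 4 of 12 endothelial, 4 of 12 blood and 6 of 14 squamous or other epithelial genes passed the filter. None of these marker lists held a gene 2-fold from NC with both siRNAs, which is uninformative at a share of 1.58% over all genes compared. As the RNA came from whole cultures, fewer cells of one kind and less RNA per cell cannot be told apart.

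**Figure D1:**
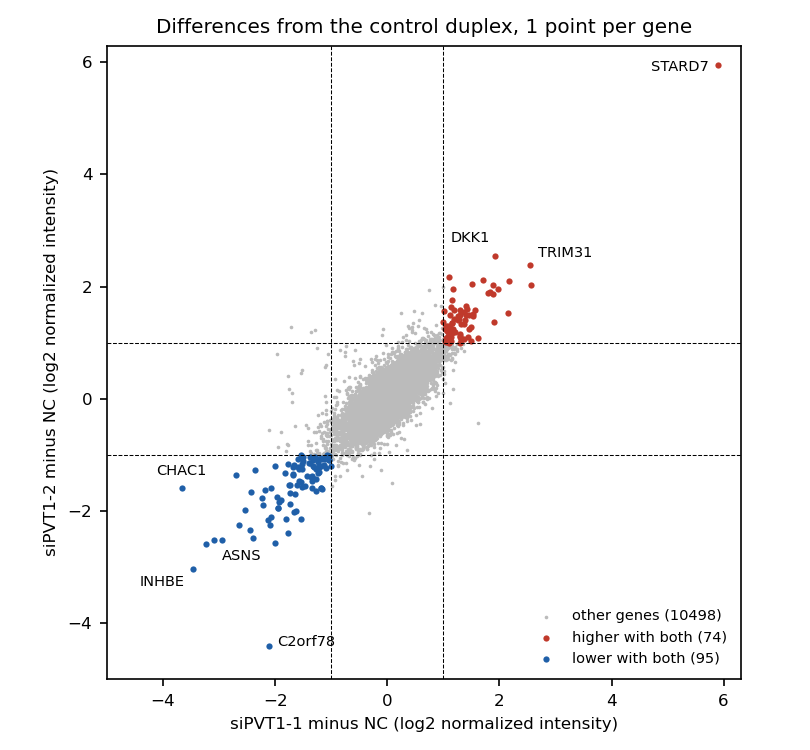
Each point is 1 of 10667 genes, with its log2 difference from NC on the siPVT1-1 array (horizontal) and the siPVT1-2 array (vertical). Dashed lines mark 2-fold. The 74 red and 95 blue genes passed 2-fold with both duplexes, and both axes subtract the same NC array.

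The lower genes had median differences of -1.54 with siPVT1-1 and -1.39 with siPVT1-2, and the higher genes 1.29 and 1.36, against 0.01 and -0.01 over all genes compared. Just inside the threshold lay STEAP3 (1.00 and 1.37), IL1RAPL2 (1.09 and 1.00) and PDK3 (1.30 and 1.00) among the higher genes, and just outside it ZNF766 (1.00 and 1.07), CD8A (1.10 and 1.00) and GKN2 (1.15 and 1.00). On the lower side AKTIP (-1.54 and -1.01), PIP5K1B (-1.01 and -1.20) and MAP1LC3B (-1.08 and -1.01) were the last inside, while NBPF14 (-0.99 and -1.02), SGPL1 (-0.99 and -1.56) and CSF2RA (-1.31 and -0.99) fell just short. Where a value just outside is printed as 1.00 it was below 1 before rounding. Each siRNA alone passed 2-fold for more genes: 133 higher (1.25%) and 183 lower (1.72%) with siPVT1-1, and 142 higher (1.33%) and 128 lower (1.2%) with siPVT1-2. The split depends on the scaling. Higher genes made up 43.8% of those called after quantile normalization, 31.7% on the values as deposited and 66.3% after median centring, which moved the all-gene medians to 0.11 and 0.16. The reference array matters as well. With the mimic array in place of NC, 108 genes were higher (1.01%) and 22 lower (0.206%) with both siRNAs. Of these, 1 of the higher and 6 of the lower genes were also called against NC. The higher genes described below, apart from OR51Q1, were thus not 2-fold above the mimic array with both siRNAs. The lists of lower genes described next mostly emptied. The secreted stress factors then held 2 lower genes, INHBE and ADM2, and the stress effectors 1, again ADM2, which is on both lists. The stress kinases and transcription factors, the cytosolic synthetases, the serine and asparagine enzymes and the amino acid transporters held 0.

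**Figure D2:**
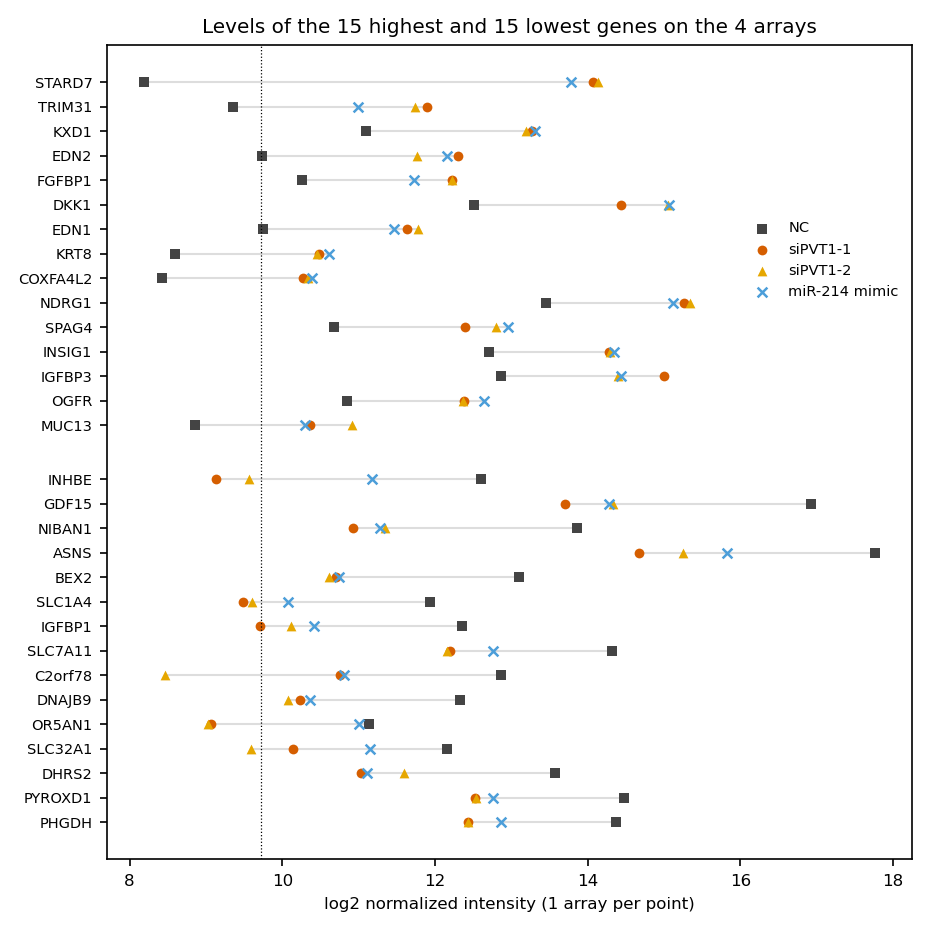
Log2 normalized intensity of the 15 genes highest (top) and the 15 lowest (bottom) by the smaller of both differences, 1 symbol per array, with the level filter as a dotted line. The NC square stands apart from both siRNA symbols in every row, and the cross of the mimic array mostly lies beside the siRNA symbols.

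The promoters of some lower genes held the motif that ATF4 and its C/EBP partners are known to bind. This C/EBP-ATF response element was searched as TGATGNAA on both strands (reverse complement TTNCATCA) in RefSeq windows from 250 bases before to 50 after each gene's start (GRCh38.p14). It was present for 14 of the 73 lower genes with a window (19.2%), for 0 of 56 higher genes, and for 250 of 8756 genes compared (2.86%); over all 27305 genes with a window the share was 4.46%. Of the lower genes on an amino acid or stress list, 10 of 24 had it (41.7%). The share among the other members of these lists was not determined, so this share cannot be tied to being lower. Motif and lists were picked with these results known, and a match is no evidence of binding. The stretches shown are 60 bases from promoters of lower genes with different roles: ASNS makes asparagine, CEBPG is an ATF4 partner, CHAC1 degrades glutathione, AARS1 charges alanine tRNA, SLC1A5 imports glutamine and HERPUD1 acts in degradation of misfolded proteins. They are printed 5′ to 3′ on the gene's strand with the match in capitals.
ASNS: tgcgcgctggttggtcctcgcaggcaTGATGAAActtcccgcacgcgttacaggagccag
CEBPG: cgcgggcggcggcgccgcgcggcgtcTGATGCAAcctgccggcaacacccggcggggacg
CHAC1: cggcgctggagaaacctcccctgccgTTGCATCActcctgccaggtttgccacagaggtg
AARS1: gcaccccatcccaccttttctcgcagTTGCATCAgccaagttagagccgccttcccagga
SLC1A5: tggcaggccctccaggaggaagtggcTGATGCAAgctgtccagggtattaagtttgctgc
HERPUD1: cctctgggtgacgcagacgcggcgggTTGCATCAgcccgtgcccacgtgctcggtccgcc
They lie at chr7:97872443-97872502 (minus strand), chr19:33374045-33374104 (plus), chr15:40953236-40953295 (plus), chr16:70289660-70289719 (minus), chr19:46784878-46784937 (minus) and chr16:56931940-56931999 (plus). The matches begin at positions -68, -42, -209, -187, -97 and -176 from the annotated start, in that order. ASNS, CEBPG and SLC1A5 carry the motif as spelled and the other promoters its reverse complement. The windows of CARS1, GARS1, MARS1, SLC1A4, SLC38A1, PLK3, SPIRE1 and TRIM2 held it as well.

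Of 14 stress kinases and transcription factors compared, 3 were lower with both duplexes and 0 higher, where 0.891% of all genes compared were lower, and the list medians were -0.66 and -0.46. DDIT3, which encodes the stress factor CHOP, had levels of 16.55 on the NC array, 14.19 with siPVT1-1 and 15.29 with siPVT1-2. Both siRNA arrays lay under NC, and the siPVT1-2 array was closer to it. CEBPG had 12.07 on the NC array, 10.56 with siPVT1-1 and 10.96 with siPVT1-2, and NUPR1, a small stress-induced chromatin protein, had 17.47 on the NC array, 15.89 with siPVT1-1 and 16.40 with siPVT1-2. ATF4 itself missed the rule with differences of -0.71 and -0.64, as did ATF3, a stress-induced repressor, with -1.23 and -0.50. After median centring DDIT3, CEBPG and NUPR1 each fell short of 2-fold with at least one duplex, and 0 of the list remained called. NUPR1 also fell short on the values as deposited.

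Among 17 feedback and effector genes of the response, 9 were lower and 0 higher, against 0.891% lower over all genes compared, with medians of -1.41 and -1.01. NIBAN1, a stress-induced cytoplasmic protein, was 7.70-fold and 5.75-fold lower with siPVT1-1 and siPVT1-2, from levels of 13.86 on the NC array, 10.92 with siPVT1-1 and 11.34 with siPVT1-2. The pseudokinase TRIB3, which dampens ATF4 activity, had 15.23 on the NC array, 13.16 with siPVT1-1 and 13.63 with siPVT1-2. SESN2, a leucine sensor that restrains mTORC1, had 15.25 on the NC array, 12.81 with siPVT1-1 and 13.59 with siPVT1-2. In all of these both siRNA arrays lay below NC. CBS, of the transsulfuration pathway, was 3.91-fold and 3.38-fold lower. CHAC1 differed between duplexes, with 12.15 on the NC array, 8.48 with siPVT1-1 and 10.56 with siPVT1-2, the siPVT1-1 level lying under the filter. STC2, a secreted glycoprotein, also split, at 12.69 on the NC array, 9.99 with siPVT1-1 and 11.33 with siPVT1-2. VEGFA, a growth factor for blood vessels, was 2.88-fold and 2.24-fold lower, while MAP1LC3B, a coat protein of autophagosomes, was 2.11-fold and 2.02-fold lower. Both dropped under 2-fold after median centring. With probes averaged 6 of the list were lower, and STC2, VEGFA and ADM2 were lost: the second probe of VEGFA had -0.94 and -0.51 and that of STC2 -1.70 and -0.58. With loess MAP1LC3B fell short as well. ERO1A, an oxidase of the endoplasmic reticulum, had 1.05 and 0.71, above NC. PPP1R15A, which recruits a phosphatase to eIF2, lay near 0 (-0.03 and -0.08).

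Enzymes that make serine, glycine, one-carbon units and asparagine were lower in 6 of 15 cases and higher in 0, with medians of -0.88 and -0.76. Over all genes compared 0.891% were lower. ASNS had levels of 17.77 on the NC array, 14.67 with siPVT1-1 and 15.25 with siPVT1-2, or 8.57-fold and 5.73-fold lower. PHGDH, the first enzyme of serine synthesis, had 14.37 on the NC array, 12.43 with siPVT1-1 and 12.43 with siPVT1-2. PSAT1, the next step, had 17.46 on the NC array, 15.72 with siPVT1-1 and 15.59 with siPVT1-2, and PSPH, the last, was 2.08-fold and 2.03-fold lower. All 3 enzymes of the serine branch were thus below NC with both duplexes, although PSPH fell short of 2-fold after median centring and on the values as deposited. The mitochondrial folate enzyme MTHFD2 was 3.53-fold and 2.51-fold lower and PCK2, which makes phosphoenolpyruvate in mitochondria, 4.68-fold and 3.39-fold. SHMT2, which splits serine in mitochondria, had differences of -0.88 and -1.20 and missed the rule with siPVT1-1, whereas its cytosolic counterpart SHMT1 had 0.28 and 0.28. MTHFD2 missed 2-fold with siPVT1-2 after median centring. GLUL, which makes glutamine, had 0.45 and 0.63, and ALDH18A1, of proline synthesis, had 0.39 and 0.82.

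Amino acid transporters were lower in 4 of 19 cases, against 0.891% of all genes compared, with list medians of -0.21 and -0.43. SLC1A4, a carrier of alanine, serine and cysteine, was 5.48-fold and 5.07-fold lower, with both siRNA levels under the filter level, so that the size is uncertain. SLC7A11, which exchanges cystine for glutamate, had 14.32 on the NC array, 12.20 with siPVT1-1 and 12.16 with siPVT1-2. Its second probe was near the floor. With probes averaged SLC7A11 fell under the level filter, and 3 of the list were lower. SLC1A5 was 2.42-fold and 2.68-fold lower and the glutamine carrier SLC38A1 2.36-fold and 2.11-fold. SLC38A1 missed 2-fold after median centring.

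The cytosolic aminoacyl-tRNA synthetases, which charge tRNAs with amino acids, were lower in 7 of 19 cases, against 0.891% of all genes compared, with medians of -0.95 and -0.66. Their mitochondrial counterparts had medians of 0.08 and 0.15 and held 0 called genes of 16, where 1.58% of all genes compared were called. The difference between both lists was not tested. CARS1, for cysteine, had 13.77 on the NC array, 11.87 with siPVT1-1 and 11.97 with siPVT1-2. WARS1, for tryptophan, was 3.37-fold and 2.89-fold lower and MARS1, for methionine, 2.87-fold and 2.99-fold. GARS1 (glycine), SARS1 (serine), AARS1 (alanine) and YARS1 (tyrosine) lay between -1.20 and -1.43 with both duplexes, and AARS1 and YARS1 missed 2-fold after median centring. QARS1, for glutamine, had 0.56 and 0.60, above NC, and KARS1, for lysine, had 0.09 and 0.27. RARS1, for arginine, differed between the duplexes (-0.06 and 0.61). Outside the lists, and named after its values were seen, XPOT, which exports tRNA from the nucleus, was 2.76-fold and 2.93-fold lower, short of 2-fold after median centring.

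**Figure D3:**
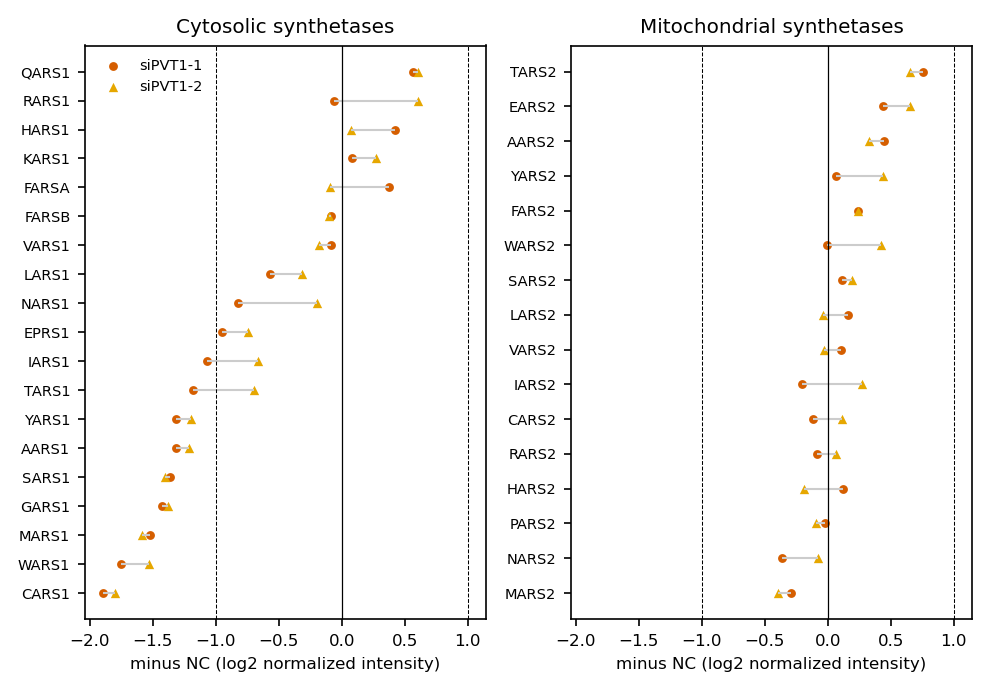
Log2 difference from NC of each cytosolic (left) and mitochondrial (right) aminoacyl-tRNA synthetase above the level filter, with circles for siPVT1-1 and triangles for siPVT1-2 and dashed lines at 2-fold. On the left 7 genes have both symbols left of -1, and on the right none has.

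In the endoplasmic reticulum, 1 of 19 chaperones and folding enzymes was lower, where 0.891% of all genes compared were. This was DNAJB9, a co-chaperone of BiP, with 12.33 on the NC array, 10.23 with siPVT1-1 and 10.08 with siPVT1-2. The list medians were -0.01 and 0.12, and after median centring both lay above 0. Of 16 sensors and degradation genes, XBP1, the transcription factor spliced by IRE1, was 2.58-fold and 2.22-fold lower and HERPUD1 2.99-fold and 2.38-fold. Both missed 2-fold after median centring. The motif ERSE of unfolded-protein targets, searched on both strands as CCAAT, 9 bases of any kind and CCACG, was found in the window of XBP1 and of no other called gene, against 12 of 8756 genes compared.

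Secreted stress factors gave 5 lower and 2 higher of 9 genes, against 0.891% lower and 0.694% higher over all genes compared. ADM2 and STC2 are among the lower genes of this list and of the stress effectors. INHBE, a TGF-beta family subunit made mainly by liver, had 12.60 on the NC array, 9.13 with siPVT1-1 and 9.56 with siPVT1-2, with both siRNA levels under the filter level. GDF15, a distant member of that family that acts on the brainstem, had 16.93 on the NC array, 13.70 with siPVT1-1 and 14.33 with siPVT1-2. IGFBP1, which binds insulin-like growth factors, had 12.36 on the NC array, 9.71 with siPVT1-1 and 10.11 with siPVT1-2. For each of these both siRNA arrays lay more than 2 log2 units below NC. ADM2, a peptide of the calcitonin family, was 3.07-fold and 2.90-fold lower but fell short with its probes averaged, when the list held 3 lower genes. In the other direction IGFBP3, the main carrier of these growth factors in blood, had 12.86 on the NC array, 15.01 with siPVT1-1 and 14.40 with siPVT1-2, and ANGPTL4, an inhibitor of lipoprotein lipase, was 2.12-fold and 2.46-fold higher but short of 2-fold on the values as deposited. FGF21, a liver hormone known to be induced by ATF4, was left out by the mean level filter. Its level was 10.29 on the NC array, 6.00 with siPVT1-1 and 6.47 with siPVT1-2, the siPVT1-1 value being the floor, which puts it at least 19.5-fold lower there. Of 8422 genes under the filter, 37 were above the filter level on the NC array and at least 2-fold lower with both siRNAs. Another 5 were above that level on both siRNA arrays and at least 2-fold higher. These conditions differ, so both counts cannot be set against each other.

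Targets of p53 were lower in 5 of 19 cases, against 0.891% of all genes compared, and SESN2 and GDF15 are shared with the stress lists. CDKN1A, the cyclin-dependent kinase inhibitor p21, had 13.15 on the NC array, 11.34 with siPVT1-1 and 11.01 with siPVT1-2, and its second probe also passed 2-fold. GADD45A, a DNA damage-inducible regulator, had 14.69 on the NC array, 12.69 with siPVT1-1 and 13.50 with siPVT1-2 but missed the rule after median centring, and the kinase PLK3 was 2.27-fold and 2.28-fold lower. The list medians were -0.60 and -0.51. Genes of the BCL2 family, the NRF2 response, the interferon response and the ribosomal proteins held 0 called members of 15, 20, 18 and 21. At the share of 1.58% called over all genes compared, these counts show nothing particular to those lists.

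Other lower genes were described after their values were seen. EIF4EBP1, which blocks cap-dependent translation, had 17.19 on the NC array, 16.02 with siPVT1-1 and 16.12 with siPVT1-2, and the initiation factor EIF1 was 2.43-fold and 2.04-fold lower. ARG2, the mitochondrial arginase, was 4.52-fold and 3.10-fold lower. GFPT1, the entry enzyme of hexosamine synthesis, was 2.54-fold and 2.60-fold lower, and TXNIP, a glucose-responsive inhibitor of thioredoxin, 3.16-fold and 2.26-fold. EIF4EBP1, EIF1 and TXNIP fell short after median centring, and EIF1 also on the values as deposited and with its probes averaged. Within the rule, BEX2, a small X-linked signalling protein, had 13.10 on the NC array, 10.70 with siPVT1-1 and 10.62 with siPVT1-2, whereas its relative BEX3 had 0.14 and 0.13. With its probes averaged BEX2 fell under the level filter, with differences of -1.76 and -2.06. DHRS2, a short-chain dehydrogenase, was 5.81-fold and 3.94-fold lower and the oxidoreductase PYROXD1 3.88-fold and 3.85-fold. ERBB4, a receptor of the EGF receptor family, was 2.89-fold and 4.45-fold lower on its brightest probe but not with its probes averaged. The cytokine IL1A was 2.62-fold and 2.22-fold lower, with both siRNA levels under the filter. The remaining leading lower genes were C2orf78 (-2.12 and -4.41), the olfactory receptor OR5AN1 (-2.08 and -2.10) and the vesicular GABA carrier SLC32A1 (-2.01 and -2.57), each with at least 1 siRNA array under the filter level.

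Among the higher genes, the largest list count was in hypoxia-inducible regulators, with 8 higher and 1 lower, VEGFA, of 24. Over all genes compared, 0.694% were higher and 0.891% lower. The list medians were 0.60 and 0.68. NDRG1, a stress-induced protein, had 13.46 on the NC array, 15.26 with siPVT1-1 and 15.34 with siPVT1-2. SPAG4, a nuclear envelope protein, had 10.68 on the NC array, 12.39 with siPVT1-1 and 12.80 with siPVT1-2. PFKFB4, which sets the level of a glycolytic activator, was 3.76-fold and 2.57-fold higher. HILPDA, a lipid droplet protein that inhibits lipolysis, had 14.90 on the NC array, 16.20 with siPVT1-1 and 16.00 with siPVT1-2. In each both siRNA arrays lay above NC. ANKRD37, COXFA4L2 and PDK3, a kinase that inactivates pyruvate dehydrogenase, were higher too. PDK3 fell short on the values as deposited, with loess and without the mimic array in the normalization, and the NC level of ANKRD37 and of COXFA4L2 lay under the filter. HIF1A, the oxygen-regulated factor itself, had differences of -0.81 and -0.68. Of 17 glycolytic enzymes 0 were called (medians 0.19 and 0.34), which is uninformative at a share of 1.58% over all genes compared. The core hypoxia motif ACGTG (reverse complement CACGT, whose letters can overlap the end of ERSE) was found for 14 of 56 higher genes with a window (25%), 28 of 73 lower genes (38.4%) and 32.5% of genes compared.

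The endothelin and adrenomedullin system held 2 higher genes and 1 lower, ADM2, of 8, where 1.58% of all genes compared were called. Its median was 0.26 with siPVT1-1 and lay near 0 with siPVT1-2. The 2 higher genes encode endothelins, peptides that constrict blood vessels. EDN1 had 9.75 on the NC array, 11.63 with siPVT1-1 and 11.78 with siPVT1-2, and EDN2 had 9.74 on the NC array, 12.30 with siPVT1-1 and 11.76 with siPVT1-2. NC was near the filter level for both. EDN3, the remaining endothelin, did not pass the level filter. ADM, a vessel-relaxing peptide of the same list, had 0.96 and 1.66 and missed the rule with siPVT1-1.

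Sterol synthesis and uptake gave 1 higher gene of 19, INSIG1, which holds the sterol-sensing complex in the endoplasmic reticulum, with 12.71 on the NC array, 14.27 with siPVT1-1 and 14.30 with siPVT1-2. Its second probe was also above 2-fold. Of the list, 18 of 19 genes lay above 0 with both duplexes, against 38.0% of all genes compared, and the medians were 0.73 and 0.78. SQLE, which makes squalene epoxide, had 0.87 and 1.31. The sterol motif TCACNCCAC (reverse complement GTGGNGTGA) was found for 0 of 56 higher genes with a window and for 1.46% of genes compared. Fatty acid and triglyceride synthesis held 0 called genes of 17, which is uninformative at a share of 1.58% over all genes compared.

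Signalling and structural genes followed. DKK1, a secreted WNT inhibitor, had 12.51 on the NC array, 14.43 with siPVT1-1 and 15.05 with siPVT1-2. FGFBP1, a carrier that releases fibroblast growth factors, had 10.25 on the NC array, 12.22 with siPVT1-1 and 12.22 with siPVT1-2. CCN1, a matrix protein induced by YAP, was 2.25-fold and 3.88-fold higher. Each was the only called gene of its list, out of 9, 6 and 9, where 1.58% of all genes compared were called. The keratins KRT19, with 14.40 on the NC array, 15.53 with siPVT1-1 and 16.03 with siPVT1-2, and KRT8, 3.69-fold and 3.63-fold higher from an NC level under the filter, were the 2 called of 14 keratin and junction genes. KXD1, a subunit of a complex that positions lysosomes, was 4.51-fold and 4.30-fold higher. DNMT3B, a DNA methyltransferase, was 2.41-fold and 2.77-fold higher from an NC level under the filter.

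STARD7, a lipid transfer protein of mitochondria, had the widest difference of all called genes, with 8.18 on the NC array, 14.07 with siPVT1-1 and 14.13 with siPVT1-2. Its NC level lay under the filter and it had no second named probe. The mimic array stood at 13.79, so NC alone was low among the 4 arrays. TRIM31, a ubiquitin ligase, had 9.35 on the NC array, 11.89 with siPVT1-1 and 11.73 with siPVT1-2, OGFR, an opioid growth factor receptor, was 2.87-fold and 2.85-fold higher, and MUC13, a membrane mucin, 2.84-fold and 4.15-fold. In 23 of the 74 higher genes the NC level lay under the filter, and in 18 of the 95 lower genes an siRNA level did, which leaves the size of those differences uncertain.

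Further higher genes were named after their values were seen. They include the actin bundler FSCN1 (1.41 and 1.49), the tubulins TUBB2A (1.37 and 1.33) and TUBA4A (1.18 and 1.43), and TM4SF1, a surface protein, with 14.54 on the NC array, 15.97 with siPVT1-1 and 16.13 with siPVT1-2. ID3, an inhibitor of basic helix-loop-helix factors, was 2.61-fold and 2.65-fold higher, but a dimmer probe of it had -0.90 and -1.26, and with its probes averaged it was not called. BMP4, a secreted ligand that induces ID genes, was 2.22-fold and 2.27-fold higher from an NC level under the filter and fell short on the values as deposited. SLC6A8, the creatine transporter, and SLC6A10P, its near-identical pseudogene copy, had differences of 1.54 and 1.47 and of 1.49 and 1.02; the probes may share targets, so they are uncertain as separate genes.

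The cell division lists held 1 called gene of 30, 0 of 28 and 1 of 20, where 1.58% of all genes were called, so these counts show nothing particular to them. Of the DNA replication genes, GINS4, a subunit of the replicative helicase, was 2.03-fold and 2.38-fold higher and missed 2-fold on the values as deposited, with loess and with its probes averaged. POLE, a replicative polymerase, had -0.97 and -0.93 and CDC6, a licensing factor, -0.73 and -0.64. The mitosis list had medians of 0.28 and 0.28, and the called G1 gene was CDKN1A. None of 25 proteasome, 24 respiratory chain, 23 ribosome biogenesis or 18 heat shock genes was called, as uninformative at that share.

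**Figure D4:**
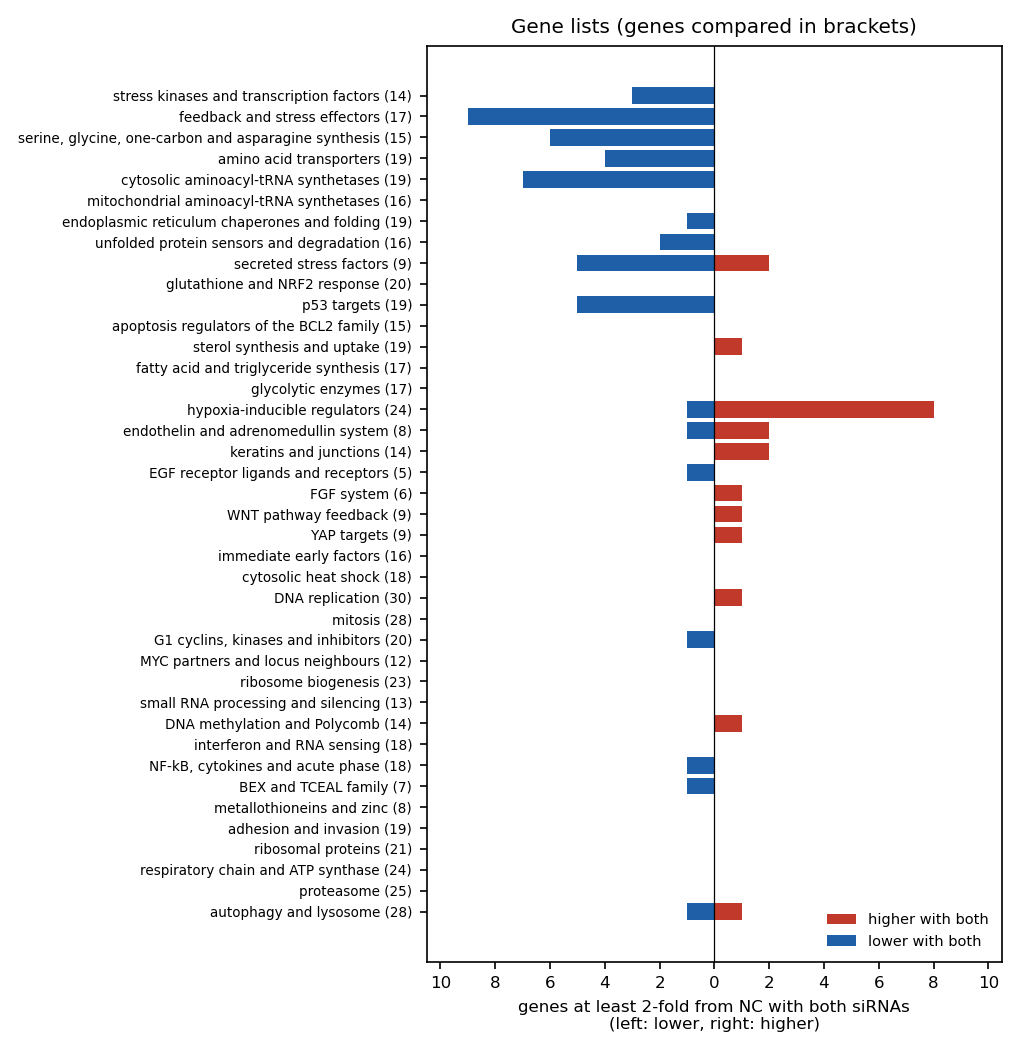
Bars count the genes of each pathway list that were at least 2-fold from NC with both siRNAs, lower to the left and higher to the right, with the number compared in brackets. The longest bars are the 9 lower stress effectors and the 8 higher hypoxia-inducible regulators.

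Near the PVT1 gene, the 5 closest compared genes on each side held 0 called members of 10, which at an overall share of 1.58% says nothing about the locus. MYC had 13.37 on the NC array, 13.50 with siPVT1-1 and 13.69 with siPVT1-2, within 2-fold on all 3 arrays. On the far side CYRIB, a regulator of the actin cytoskeleton, had -0.11 and 0.56. The MYC partner list held 0 called genes of 12, as uninformative at that share, with medians of 0.22 and 0.33.

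The duplexes themselves differed at 2-fold for 5 of the 169 genes. CHAC1, STC2 and DDIT3 were lower with siPVT1-1 than with siPVT1-2, C2orf78 was higher with it, and GLRA1, a glycine receptor subunit, was lower with it (1.10 and 2.17 from NC). Over all genes, 10 were higher (0.0937%) and 43 lower (0.403%) with siPVT1-1 than with siPVT1-2.

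The mimic array, from cells with another RNA duplex, serves as a second reference for NC and the siRNA arrays. Among the 74 higher genes its level was within 2-fold of both siRNA arrays for 70 and within 2-fold of NC for 18. Among the 95 lower genes these counts were 78 and 30. Over all genes compared, the mimic array was 2-fold apart from siPVT1-1 for 322, from siPVT1-2 for 178 and from NC for 511. Most genes thus lay within 2-fold of both siRNA arrays, so 70 of 74 and 78 of 95 show no particular closeness. The called genes were chosen for their distance from NC, so low counts near NC follow partly from the rule. The median difference of the mimic array from NC was 1.35 over the higher and -1.17 over the lower genes, with NC shared by all of these differences. ASNS stood at 15.83 on the mimic array, GDF15 at 14.28 and NDRG1 at 15.12, each nearer to the siRNA levels than to NC. Only 7 of the 169 genes were 2-fold from both references the same way: OR51Q1 was higher, and ACSM4, ADM2, INHBE, OR5AN1, SLC32A1 and ZYX were lower. Over all genes compared, 1.01% were higher and 0.206% lower than the mimic array with both siRNAs. Both comparisons use the same siRNA arrays, so they are not independent. OR51Q1 fell short on the values as deposited (1.02 and 0.90 from NC). ACSM4, INHBE and OR5AN1 had both siRNA levels under the filter level, and SLC32A1 its siPVT1-2 level. INHBE differed from the mimic array by -2.05 and -1.62, and ZYX, an adaptor at focal adhesions, by -1.36 and -1.49. An effect of the PVT1 duplexes and a deviation of the single NC array cannot be told apart in these data.

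**Figure D5:**
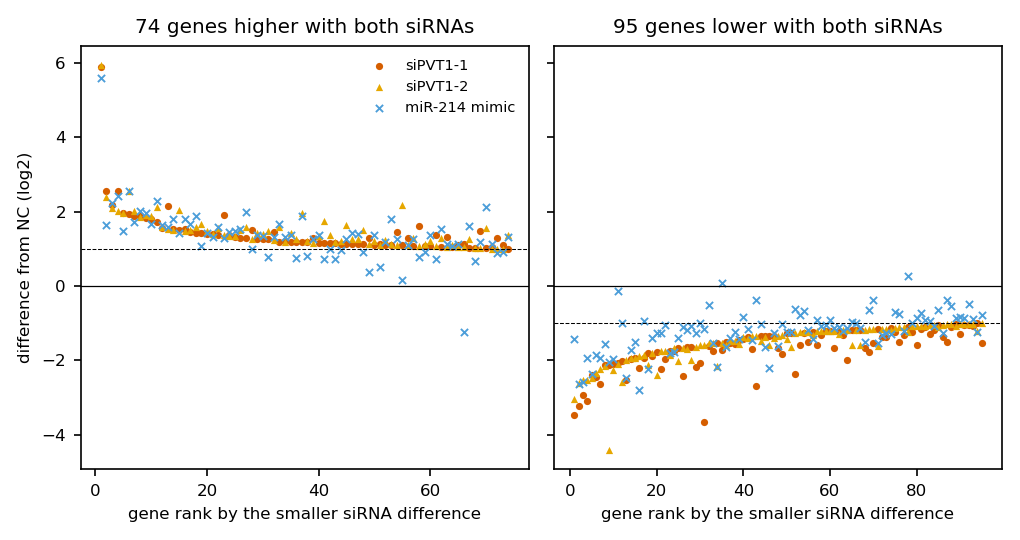
Log2 difference from NC for the genes called higher (left) and lower (right), ranked by the smaller siRNA difference, for siPVT1-1 (circles), siPVT1-2 (triangles) and the miR-214 mimic (crosses), with 2-fold as a dashed line. Most crosses lie among the siRNA symbols, 28 of 74 on the left beyond both siRNAs, and all 3 differences subtract the same NC array.

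A second named probe above the filter existed for 9 higher genes, all of which moved the same way with both duplexes, 4 of them by 2-fold. For lower genes there were 18, of which 17 moved the same way and 10 by 2-fold. Over all genes compared, 38.0% lay above 0 with both duplexes, and 4019 of 10667 lay below 0. Second probes were read on the same arrays, so a deviation of the NC array enters them too. The exception among the 18 was PCDH1, a protocadherin, whose second probe had 0.61 and 0.40.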

How the data were processed

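The deposited values are linear intensities of a 1-colour Cy5 array, with 28264 probes on 4 arrays. Values below 0 occur in the deposited intensities, so background had been subtracted; the software for this step was not given. Deposited median intensities ran from 784.1 to 926.9, and 8.14 to 11.7% of values lay below the floor of 64. They were quantile-normalized over the 4 arrays with limma 3.58.1 in R 4.3.3, floored at 64 and taken to log2. Of the probes, 25893 had 1 gene symbol, updated by Entrez identifier to RefSeq (GRCh38.p14), and 2371 had none here. The brightest probe stood for each of 19090 genes. Genes with a mean log2 level above 9.72, the median of all probes, numbered 10668; 1 at the floor was left out. Named genes were the 15 leading each way, up to 4 called members of each of 45 lists, list members against the trend and genes at the threshold. The members and lists were chosen with earlier results of these data known. The counting rule was run on simulated arrays whose noise was set from the spread between both siRNA arrays. A larger deviation of NC was not simulated. The standard deviation of the differences was 0.29 between the siRNA arrays and 0.43 between NC and either of them. Signal over background and 1 array per group limit the precision.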

Additional observations from a re-analysis of the deposited data

Results flagged for a closer look

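Probes without a gene name here were outside the comparison. Of 2371 such probes, 1003 passed the level filter, and by the same 2-fold rule 2 were higher and 9 lower with both siRNAs than on the NC array. These are 0.199% and 0.897%, beside 0.694% and 0.891% of the named genes compared, so the lower share is like that of named genes. The probes are given because no comparison used them.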

How the results depend on the processing

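The main counts were 74 higher and 95 lower genes. Values as deposited, cyclic loess, quantile normalization without the mimic array, a floor of 1 and averaged probes kept both counts within 1.5 times. Median centring gave 122 and 62, a level filter at the 75th percentile 37 and 45, no level filter 182 lower, a threshold of 1.5-fold 428 and 355, and 3-fold 11 and 30. The filter and threshold changes follow from their construction; for median centring, which shifts all genes, the cause was not tested. With the mimic array in place of NC 22 genes were lower. A limma fit that took both siRNA arrays as 1 group had 1 residual degree of freedom, assumed NC to vary like them, and gave 297 higher and 272 lower genes at an adjusted p under 0.05 and 1752 at an unadjusted p under 0.05; it rests on the values the 2-fold rule used and on 1 NC array, so it lends the called genes no support. With the mimic array in place of NC, a called gene among the 112 named was marked reversed when at least 1 duplex changed sign. Uncalled genes were marked only if 2-fold the other way. Smaller sign changes, such as F3 (0.54 and 0.57 from NC, -0.41 and -0.37 from the mimic array), are thus not counted. The mark fell on 22 called genes, and the cause was not tested. The log2 difference of the duplex furthest against the call was: OGFR -0.28, IGFBP3 -0.039, INSIG1 -0.068, SPAG4 -0.57, COXFA4L2 -0.12, KRT8 -0.16, DKK1 -0.63, EDN2 -0.39, KXD1 -0.11, KRT19 -0.13, CCN1 -0.71, GINS4 -0.58, GDF15 0.051, NIBAN1 0.064, DHRS2 0.49, PSAT1 0.054, WARS1 0.012, MARS1 0.12, XBP1 0.13, CDKN1A 0.44, ERBB4 0.66 and IL1A 0.16. By the same marks, no named gene reversed under the other settings run. No paired analysis was possible because each group held 1 array, and no replicate could be left out.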
